A study of Mus musculus with 6 samples.

Results

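The enzymes described here oxidise, reduce, hydrolyse or conjugate aldehydes, steroids, lipids and foreign chemicals. They were taken as every row of the gene count table whose symbol begins with Aldh, Akr, Cyp, Fmo, Ugt, Sult or Ces followed by a digit, leaving out Aldh3a1 and Cyp51. This rule gave 172 of the 30438 genes listed. Of the 172 genes, 57 were expressed, meaning that at least 3 of the 6 libraries held 10 or more counts. Of the other 115, 57 were listed at 0 in every library, 42 had between 1 and 15 counts over all 6 libraries, and 16 had more, up to 54. The members closest to the limit were Ces5a inside it, with 10, 0 and 11 counts in libraries labelled Nrf2 KO and 6, 0 and 11 in the OC1 libraries, and Cyp3a62 outside it, with 4, 7 and 6 counts in libraries labelled Nrf2 KO and 10, 14 and 7 in the OC1 libraries.

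RNA was sequenced after poly(A) selection from 2 groups of 3 libraries of HEI-OC1, a conditionally immortalised line from the mouse organ of Corti that the labels call a cochlear stem cell. One group is labelled as a knockout of Nrf2, the transcription factor encoded by Nfe2l2, and the other is the wild-type parent line, here OC1. Both were grown at 33 °C and 10% CO2 in DMEM with 10% serum and 1% penicillin-streptomycin, with no drug recorded, and the submitters asked which genes bear on the cisplatin resistance of cells so labelled. The labels do not give the edit, whether the line is 1 clone, or whether replicates were separate cultures, so p-values measure the spread between these libraries, which may be technical.

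The libraries labelled Nrf2 KO held 29130007 to 51285343 counts and the OC1 libraries 38636523 to 44098578. Nfe2l2 went against the label, at 279 ± 103 CPM (counts relative to the scaled size of the library) in libraries labelled Nrf2 KO and 99.1 ± 26.2 CPM in OC1 (SD, n = 3 each), a log2 fold change of 1.49 (SE 0.33, adjusted p = 0.0456), so every direction below is that of libraries so labelled. A gene's total count cannot show a small edit. Keap1, which holds NRF2 in check, averaged 38.6 ± 5.71 CPM in libraries labelled Nrf2 KO and 35.2 ± 2.84 CPM in OC1 (adjusted p = 0.687), and Aldh3a1, left out by the rule, 115 ± 35.8 and 234 ± 10.97 CPM (adjusted p = 0.0685). Replicate 1 labelled Nrf2 KO stood apart: its log2 CPM correlated across genes at r = 0.931 and 0.939 with the other libraries of its group, which correlated at 0.995 with each other. Hair cell markers Atoh1, Slc17a8 and Slc26a5 and the prosensory marker Sox2 were listed at 0 in all 6 libraries, and so were the liver markers Hnf4a, Serpina1 and Ahsg. Of 2 tested hair cell markers 1 was higher in libraries labelled Nrf2 KO, Myo7a at 20.3 ± 8.35 CPM and 1.32 ± 0.207 CPM in OC1 (log2 fold change 3.95, SE 0.36, adjusted p = 0.00348). Of 8 tested supporting cell and prosensory markers 4 were higher and 0 lower, with log2 fold changes of 2.19 for Sox9, 2.15 for Fst, 2.12 for Gata3 and 1.25 for Bmp4. The 9 liver markers summed to 0.389 to 3.61 CPM in libraries labelled Nrf2 KO and 0.675 to 1.40 CPM in OC1. Of 6 tested fibroblast markers 4 were higher and 0 lower in libraries labelled Nrf2 KO, where the list summed to 6695 to 8800 CPM, against 5634 to 6745 CPM in OC1. Col3a1 pointed the other way, at 2821 ± 141 CPM in libraries labelled Nrf2 KO and 4452 ± 343 CPM in OC1, without overlap. Its log2 fold change was -0.66 (adjusted p = 0.0920 by edgeR and 6.91e-06 by DESeq2). Over all genes tested by edgeR, 4.83% were higher and 3.45% lower. The part of all these marker differences in the results below was not tested.

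Aldehydes arise from lipid peroxidation, amino acid breakdown and alcohols, and bind protein and DNA. Aldehyde dehydrogenases (Aldh) oxidise them to acids, and aldo-keto reductases (Akr) reduce them and other carbonyls to alcohols. Cytochrome P450 enzymes (Cyp) and flavin monooxygenases (Fmo) insert oxygen into drugs, steroids, retinoids and fatty acids, and glucuronosyltransferases (Ugt), sulfotransferases (Sult) and carboxylesterases (Ces) conjugate or cleave the products. Several genes of these families are known NRF2 or aryl hydrocarbon receptor targets, and most are expressed mainly in liver, kidney and gut.

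NRF2 binds the antioxidant response element, whose core is TGACNNNGC. The RefSeq promoter table (GRCm38.p6, 250 bases before to 50 after each start) held 35 of the 57 expressed members. The core, searched on both strands, was present in 4 of the 35 (Akr1cl, Akr1c19, Aldh9a1 and Cyp4f39), against 13.99% of all 27025 genes in the table. Of the 6 members with a promoter in the table that were lower in libraries labelled Nrf2 KO, described below, 1 held it. A match is a string of letters and not a binding site. The promoters of 3 aldo-keto reductases, 2 of them with the core, and of 2 other enzymes that were lower and lack it are printed 5′ to 3′ along the gene, with the core in capitals. In Akr1cl it lay at bases 85 to 93 and in Akr1c19 at bases 258 to 266, on the opposite strand in both.
Akr1cl, chr1:65032710-65033009, - strand: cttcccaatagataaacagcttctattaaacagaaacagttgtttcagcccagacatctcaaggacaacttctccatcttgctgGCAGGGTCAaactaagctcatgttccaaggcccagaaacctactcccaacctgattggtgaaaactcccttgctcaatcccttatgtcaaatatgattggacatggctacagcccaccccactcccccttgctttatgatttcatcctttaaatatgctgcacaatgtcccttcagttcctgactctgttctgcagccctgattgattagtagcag
Akr1c14, chr13:4059341-4059640, + strand: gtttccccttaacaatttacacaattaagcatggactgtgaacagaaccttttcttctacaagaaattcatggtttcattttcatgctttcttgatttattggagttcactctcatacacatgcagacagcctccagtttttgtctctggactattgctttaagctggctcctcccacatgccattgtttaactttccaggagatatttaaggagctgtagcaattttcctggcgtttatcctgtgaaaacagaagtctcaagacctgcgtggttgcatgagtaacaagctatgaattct
Akr1c19, chr13:4233490-4233789, + strand: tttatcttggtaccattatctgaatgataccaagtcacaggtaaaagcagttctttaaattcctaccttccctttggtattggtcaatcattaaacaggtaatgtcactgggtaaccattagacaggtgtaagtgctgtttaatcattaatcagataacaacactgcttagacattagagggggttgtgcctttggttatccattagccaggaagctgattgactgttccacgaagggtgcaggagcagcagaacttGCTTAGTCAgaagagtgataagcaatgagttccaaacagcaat
Aldh5a1, chr13:24937612-24937911, - strand: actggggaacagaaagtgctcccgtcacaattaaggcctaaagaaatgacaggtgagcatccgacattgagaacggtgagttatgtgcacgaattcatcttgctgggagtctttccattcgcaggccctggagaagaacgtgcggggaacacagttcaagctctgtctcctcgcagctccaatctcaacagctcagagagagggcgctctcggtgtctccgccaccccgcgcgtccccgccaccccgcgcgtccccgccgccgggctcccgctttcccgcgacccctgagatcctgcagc
Sult5a1, chr8:123158231-123158530, - strand: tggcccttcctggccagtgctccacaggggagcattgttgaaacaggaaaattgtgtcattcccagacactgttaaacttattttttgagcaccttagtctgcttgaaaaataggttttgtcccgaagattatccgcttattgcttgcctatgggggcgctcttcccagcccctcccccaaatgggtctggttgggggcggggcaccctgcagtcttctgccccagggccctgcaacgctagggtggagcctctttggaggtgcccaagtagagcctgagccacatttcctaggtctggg

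Of the 57 expressed enzymes, all of which could be tested, 12 were lower and 0 higher in libraries labelled Nrf2 KO by the quasi-likelihood test of edgeR, Benjamini-Hochberg adjusted over 14618 genes. Over all genes tested, 3.45% were lower and 4.83% higher. The 12 included Aldh5a1, Aldh8a1, Akr1c12l1, Akr1c14, Akr1cl, Akr1e2, Cyp4f17, Cyp4f40, Fmo1, Sult2a2 and Sult5a1. Of these 12, 7 passed the expression limit through the OC1 libraries alone, among them Aldh5a1, Akr1c12l1, Akr1c14, Akr1cl, Fmo1 and Sult5a1. These 7 had to be lower, and their number is not evidence about the families. Before adjustment, 17 members were lower and 6 higher at p under 0.05, with no share of all genes to set beside them. Limma-voom called 12 lower and 0 higher, against 4.12% and 5.14% of all genes, and DESeq2 called 16 and 5, against 9.02% and 10.9%. The groups did not overlap for 26 of the 57, 21 lower and 5 higher, against 17.1% of all genes in each direction. The median log2 fold change was -0.20 for the 57 members and 0.04 for all tested genes, and the first value was the same with Akr1c12l1 at its limit. The filter itself set the direction of 10 members, since 9 were expressed through OC1 alone and 1, Ces1f, through libraries labelled Nrf2 KO alone. All 9 are among the 21 without overlap and among the 17 lower before adjustment. Neither of those counts nor the median is thus evidence about the families, and the family medians below carry the same limit.

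The count moved with the libraries used. With replicate number as a block 16 members were lower and 4 higher, against 7.92% and 10.4% of all genes. Without replicate 1 labelled Nrf2 KO, 22 were lower and 7 higher of 59 tested, against 14.5% and 15.6% of all genes, and without both replicate 1 libraries 23 and 10 of 56, against 22.1% and 24.0%. Without any 1 of the other 5 libraries 0 were higher, against 0.925% to 1.82% of all genes. The lower members then numbered 7 without OC1 replicate 1 (0.691% of all genes lower, 1.40% higher), 6 without OC1 replicate 2 (0.659% and 1.37%) and 6 without OC1 replicate 3 (0.379% and 0.925%). They numbered 6 without replicate 2 labelled Nrf2 KO (0.740% and 1.79%) and 8 without its replicate 3 (0.739% and 1.82%). All 12 members stayed called in the block fit and in both fits without replicate 1. Of the 12, 6 also passed without each other library in turn, among them Akr1c12l1, Akr1c14, Cyp4f40, Sult2a2 and Sult5a1. Akr1c12l1, Akr1c14 and Sult5a1 passed the expression limit through OC1 alone, so leaving out a library could not turn their direction.

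**Figure D1:**
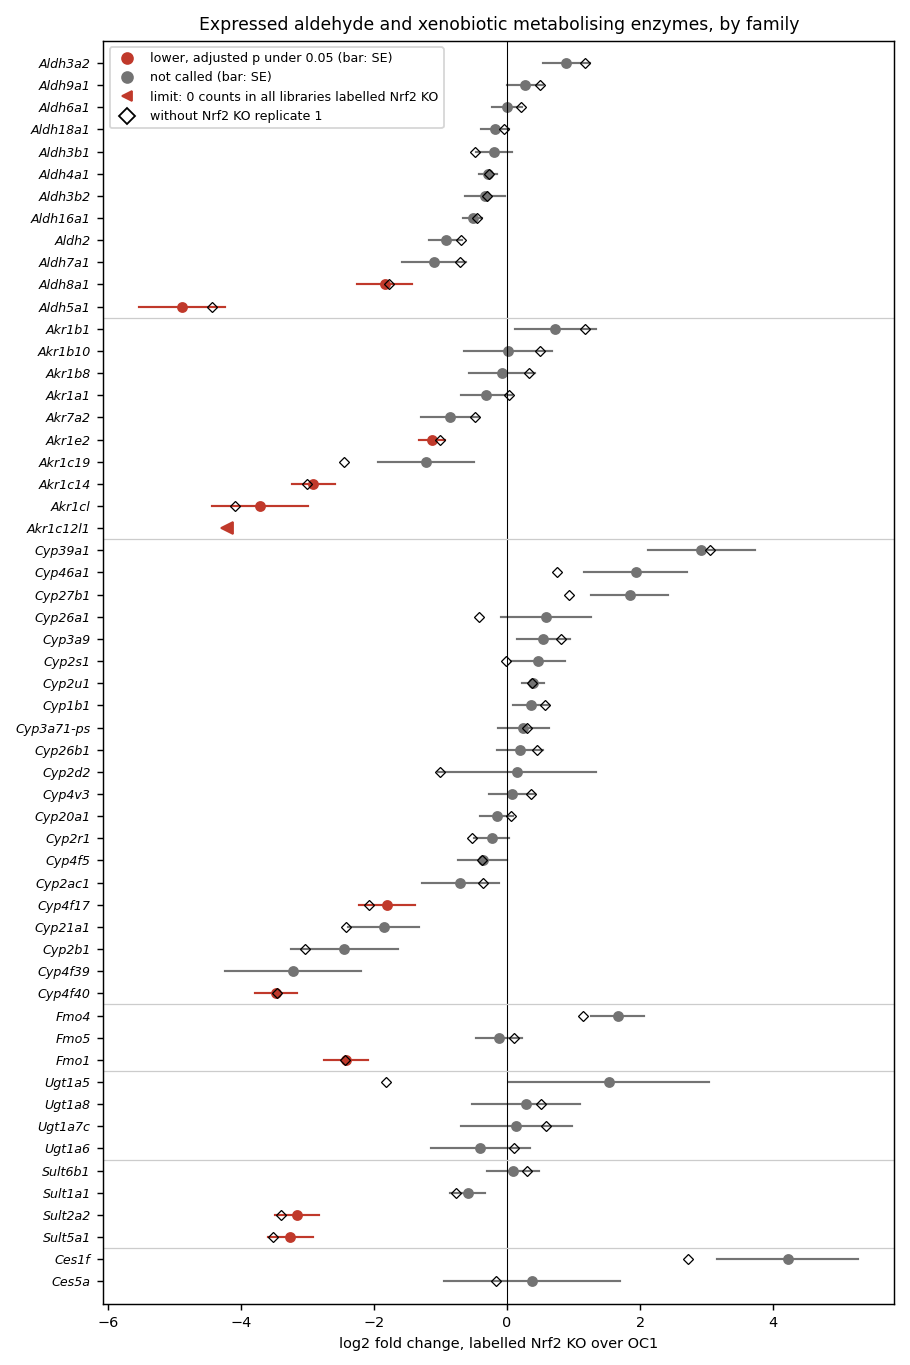
Log2 fold change of 56 of the expressed enzymes, libraries labelled Nrf2 KO over OC1, in blocks by family. The bar is a standard error derived from the edgeR test statistic. Red marks the 11 of these called lower and grey those not called. Open diamonds give the fit without replicate 1 labelled Nrf2 KO, and are left out for Akr1c12l1 and Cyp4f39, which then had 0 counts in that group; the triangle for Akr1c12l1 is a limit.

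The lower members were weakly expressed in OC1 as well. Of the 12, 10 averaged under 3 CPM in OC1, and 11 of the 12 were among the 38 members with a mean under 10 CPM over all libraries. Of the 19 members above that level, Akr1e2 was the one called. In the authors' FPKM, which divide by gene length, Akr1e2 stood at 4.80 in the group labelled Nrf2 KO and 10.6 in OC1, and the other 11 had at most 1.77 in OC1. The highest group FPKM belonged to Akr1a1 (228 in the group labelled Nrf2 KO and 288 in OC1), Akr1b1 (125 and 77.7), Cyp1b1 (89.2 and 70.0), Akr1b8 (81.2 and 87.7) and Aldh7a1 (53.0 and 117).

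**Figure D2:**
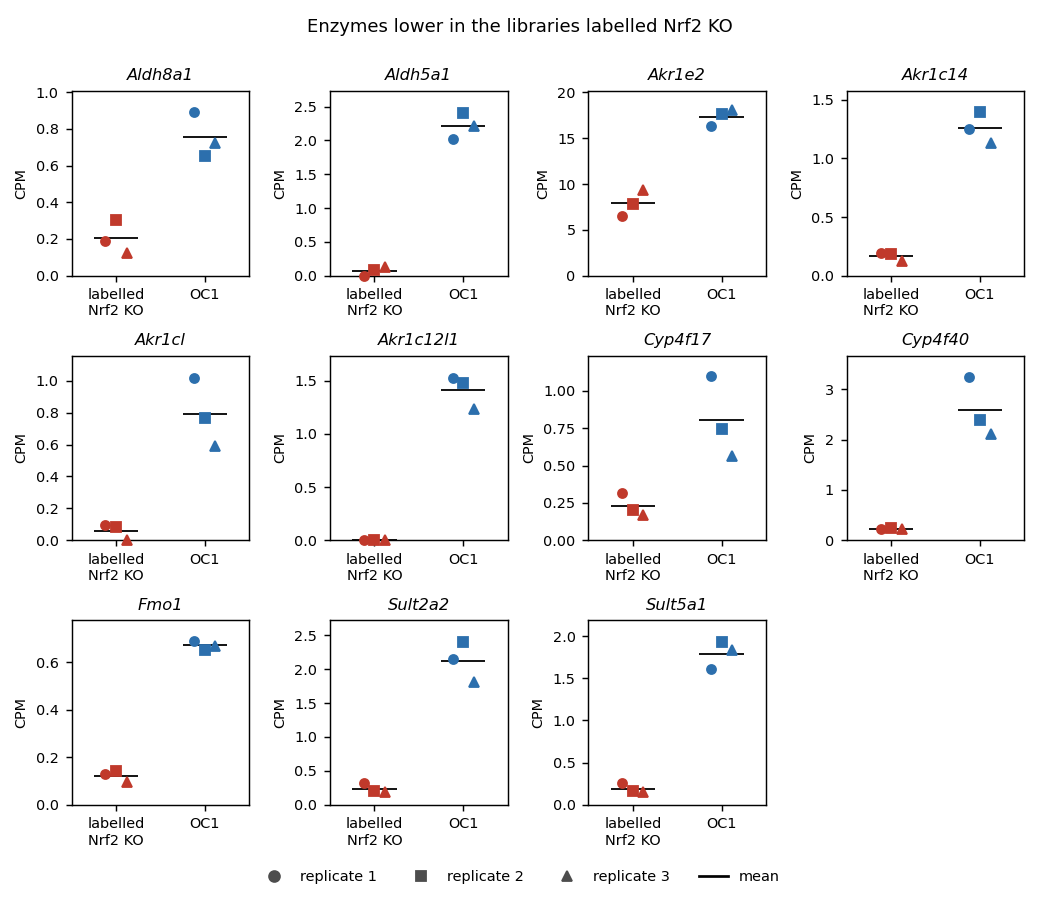
Level in CPM of 11 lower enzymes in each library, labelled Nrf2 KO on the left and OC1 on the right, with the group mean as a line and a marker shape for each replicate number. In every panel all 3 libraries labelled Nrf2 KO lie under all 3 OC1 libraries, and Akr1c12l1 is at 0 in libraries labelled Nrf2 KO. The panels were chosen as lower in these same data. For Akr1c12l1, Akr1c14, Akr1cl, Aldh5a1, Fmo1 and Sult5a1 the expression limit itself fixed the separation.

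Among aldehyde dehydrogenases, 12 of 19 genes were expressed, and 2 were lower and 0 higher (edgeR; the median log2 fold change was -0.31). Aldh5a1 oxidises succinate semialdehyde, the last step of GABA breakdown. Its level was 0, 0.0815 and 0.122 CPM in libraries labelled Nrf2 KO, against 2.02, 2.41 and 2.22 CPM in OC1. These were 0, 4 and 5 counts against 79, 107 and 86, with no overlap and a log2 fold change of -4.88 (SE 0.65, adjusted p = 0.00974). The call was lost without OC1 replicate 2 or 3 or replicate 2 labelled Nrf2 KO (adjusted p from 0.0510 to 0.0636). Aldh8a1, a dehydrogenase of tryptophan breakdown that also accepts retinal, was at 0.192, 0.305 and 0.122 CPM in libraries labelled Nrf2 KO and 0.893, 0.652 and 0.722 CPM in OC1. It had a log2 fold change of -1.84 (SE 0.41, adjusted p = 0.0459), and it lost the call in the fit with no filter on low counts (adjusted p = 0.0634) and without any 1 library other than replicate 1 labelled Nrf2 KO (up to 0.186).

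The abundant aldehyde dehydrogenases were not called in the unblocked edgeR fit. Aldh2, the mitochondrial enzyme that clears acetaldehyde, was at 71.5, 124 and 127 CPM in libraries labelled Nrf2 KO and 210, 192 and 208 CPM in OC1. Its groups did not overlap, with a log2 fold change of -0.92 (SE 0.25) with an adjusted p of 0.0773, or 0.0442 with the replicate block, 0.0444 with library size as the only scaling and 0.00626 by DESeq2. Aldh7a1, which acts in lysine breakdown, was at 46.3, 168 and 159 CPM in libraries labelled Nrf2 KO and 210, 304 and 287 CPM in OC1 (-1.10, SE 0.48, adjusted p = 0.226, or 0.0496 blocked). Aldh16a1 was at 119, 137 and 140 CPM in libraries labelled Nrf2 KO and 181, 198 and 188 CPM in OC1 (-0.52, SE 0.15, adjusted p = 0.0835, or 0.0412 blocked and 0.000489 by DESeq2). All 3 lay lower in every library labelled Nrf2 KO than in any OC1 library, with replicate 1 the lowest of its group.

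Aldh3a2, the fatty aldehyde dehydrogenase, pointed the other way. It was at 36.8, 87.6 and 74.3 CPM in libraries labelled Nrf2 KO and 26.5, 44.1 and 36.6 CPM in OC1, with a log2 fold change of 0.89 (SE 0.36, adjusted p = 0.190, or 0.0290 blocked). Its groups overlapped through replicate 1 labelled Nrf2 KO, which lay between OC1 replicates 2 and 3. Aldh9a1, an enzyme of carnitine synthesis, averaged 121 ± 34.9 CPM in libraries labelled Nrf2 KO and 100.2 ± 18.7 CPM in OC1. The proline enzymes Aldh18a1 (synthesis) and Aldh4a1 (breakdown) had log2 fold changes of -0.18 (SE 0.21) and -0.29 (SE 0.14). Aldh6a1, Aldh3b1 and Aldh3b2 lay between -0.34 and 0.00.

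Retinal dehydrogenases, which make retinoic acid, were at or near 0: Aldh1a1 had 20 counts, Aldh1a2 3 and Aldh1a3 5 over all 6 libraries. On the side that degrades retinoic acid, Cyp26b1 was at 4.28, 8.39 and 8.34 CPM in libraries labelled Nrf2 KO and 4.47, 7.65 and 6.29 CPM in OC1 (log2 fold change 0.19, SE 0.35). Cyp26a1 was at 1.37, 0.387 and 0.267 CPM in libraries labelled Nrf2 KO and 0.561, 0.472 and 0.284 CPM in OC1 (0.58, SE 0.68). Both overlapped between groups. Of 9 tested retinoid-binding and receptor genes, 1 was higher and 0 lower: Rarb, a retinoic acid receptor, at 1.90 ± 0.0790 CPM in libraries labelled Nrf2 KO and 0.343 ± 0.151 CPM in OC1 (2.45, SE 0.37, adjusted p = 0.0135). The call was lost without OC1 replicate 1 or 3 or replicate 2 or 3 labelled Nrf2 KO (adjusted p up to 0.0961). With the replicate block Crabp2, a retinoic acid binding protein, was also called, at 13.5 ± 2.51 CPM in libraries labelled Nrf2 KO and 19.8 ± 4.18 CPM in OC1 (adjusted p = 0.200, or 0.0416 blocked).

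Among aldo-keto reductases, 10 of 18 genes were expressed, and 4 were lower and 0 higher, with a median log2 fold change of -0.99. The 4 were 3 of the Akr1c type, the subfamily of hydroxysteroid dehydrogenases, and Akr1e2. Akr1c12l1 had 0, 0 and 0 counts in libraries labelled Nrf2 KO and 60, 66 and 48 in OC1. Taking 3 counts in each library as the limit of detection, it was at least 18.5-fold lower in libraries labelled Nrf2 KO (adjusted p = 0.00537). The symbol Akr1c12l1 has no mouse match, so which mouse gene its reads came from is not known. Akr1c14, a hydroxysteroid dehydrogenase, was at 0.192, 0.183 and 0.122 CPM in libraries labelled Nrf2 KO and 1.25, 1.39 and 1.13 CPM in OC1 (log2 fold change -2.91, SE 0.33, adjusted p = 0.00543). Akr1cl had 3, 4 and 0 counts in libraries labelled Nrf2 KO and 40, 34 and 23 in OC1 (-3.71, SE 0.72, adjusted p = 0.0304). That call was lost without any 1 OC1 library or replicate 2 labelled Nrf2 KO (adjusted p up to 0.122). No library labelled Nrf2 KO reached the lowest OC1 library for any of them. The expression limit had fixed this, since Akr1c12l1, Akr1c14 and Akr1cl passed it through OC1 alone. These genes have near-identical relatives, so reads can be split between them and each level is uncertain.

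Akr1e2, whose mouse symbol is Akr1e1, reduces anhydrofructose, a product of glycogen breakdown. It was at 6.54, 7.86 and 9.38 CPM in libraries labelled Nrf2 KO and 16.4, 17.6 and 18.1 CPM in OC1 (log2 fold change -1.13, SE 0.19, adjusted p = 0.0203), without overlap. The call was lost without any 1 library other than replicate 1 labelled Nrf2 KO (adjusted p up to 0.135). Akr1c19 was at 2.23, 0.489 and 0.365 CPM in libraries labelled Nrf2 KO and 3.19, 1.98 and 1.91 CPM in OC1. There replicate 1 labelled Nrf2 KO lay among the OC1 values, with a log2 fold change of -1.22 with all libraries (SE 0.72, adjusted p = 0.364) and -2.45 without it (SE 0.36, adjusted p = 0.00518).

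The highly expressed reductases overlapped between groups or were not called. Akr1b1, aldose reductase (mouse symbol Akr1b3), which turns glucose into sorbitol, was at 56.0, 280 and 288 CPM in libraries labelled Nrf2 KO and 84.4, 153 and 141 CPM in OC1. Replicate 1 was the lowest and replicates 2 and 3 the highest of all 6 libraries, with a log2 fold change of 0.72 with all libraries (SE 0.61, adjusted p = 0.533) and 1.17 without replicate 1 labelled Nrf2 KO (SE 0.24, adjusted p = 0.0161). Akr1a1, which reduces glucuronate, averaged 317 ± 144 CPM in libraries labelled Nrf2 KO and 393 ± 51.3 CPM in OC1. Akr1b8 averaged 99.9 ± 57.7 CPM in libraries labelled Nrf2 KO and 105 ± 13.5 CPM in OC1, and Akr1b10 8.20 ± 5.68 and 8.15 ± 1.88 CPM. Akr7a2 (mouse Akr7a5), which reduces succinate semialdehyde, was at 11.7, 35.0 and 39.3 CPM in libraries labelled Nrf2 KO and 44.4, 54.3 and 56.9 CPM in OC1, with no overlap and no call (-0.86, SE 0.44, adjusted p = 0.293).

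**Figure D3:**
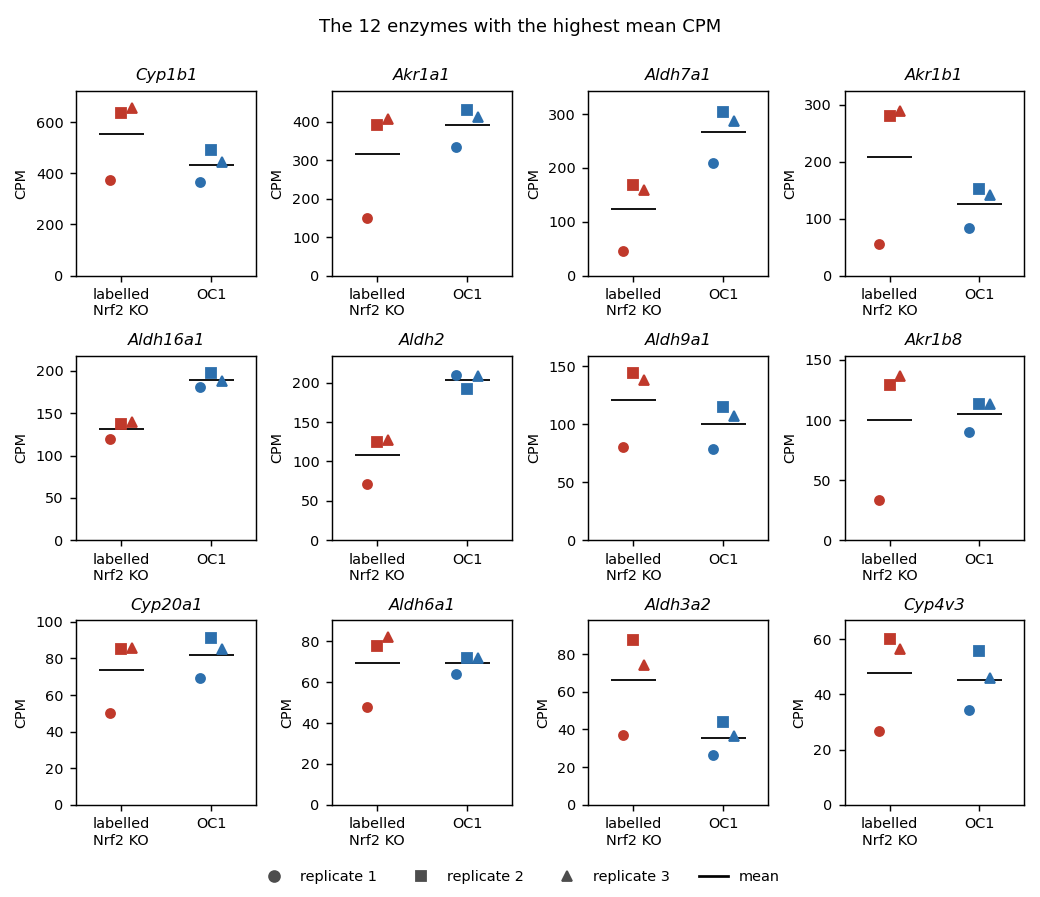
Level in CPM of the 12 enzymes with the highest mean over all libraries, labelled Nrf2 KO on the left and OC1 on the right, with group means as lines and marker shapes for replicate numbers. Replicate 1 labelled Nrf2 KO (red circle) is the lowest library of its group in each panel, and for Aldh7a1, Aldh16a1 and Aldh2 the groups do not overlap.

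Among cytochrome P450 genes, 21 of 81 were expressed, and 2 were lower and 0 higher, with a median log2 fold change of 0.15. Both lower genes belong to the Cyp4f subfamily, hydroxylases of fatty acids and eicosanoids. Cyp4f40 was at 0.223, 0.244 and 0.219 CPM in libraries labelled Nrf2 KO and 3.24, 2.38 and 2.11 CPM in OC1 (log2 fold change -3.47, SE 0.31, adjusted p = 0.00330). Cyp4f17 was at 0.319, 0.204 and 0.170 CPM in libraries labelled Nrf2 KO and 1.10, 0.742 and 0.567 CPM in OC1 (-1.81, SE 0.42, adjusted p = 0.0498). The groups of both were apart. The Cyp4f17 call sat at its threshold and was lost under every other scaling (adjusted p from 0.0515 to 0.0606), with no filter on low counts (0.0639), with a minimum of 10 counts in 3 libraries (0.0504) and without any 1 library other than replicate 1 labelled Nrf2 KO (up to 0.176). Cyp4f39 had 4, 0 and 0 counts in libraries labelled Nrf2 KO and 11, 19 and 13 in OC1, and was not called (adjusted p = 0.116).

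Cyp1b1, which hydroxylates oestrogens and polycyclic aromatic hydrocarbons, was the most abundant P450 member. It was at 376, 638 and 654 CPM in libraries labelled Nrf2 KO and 367, 490 and 444 CPM in OC1 (log2 fold change 0.36, SE 0.27, adjusted p = 0.480). Its groups overlapped through replicate 1, and without replicate 1 labelled Nrf2 KO the value was 0.57 (SE 0.15, adjusted p = 0.0359). The classical aryl hydrocarbon receptor targets Cyp1a1 and Cyp1a2 were listed at 0 in all 6 libraries. Other abundant members were Cyp20a1, at 73.6 ± 20.1 CPM in libraries labelled Nrf2 KO and 82.0 ± 11.3 CPM in OC1, and Cyp4v3, a fatty acid hydroxylase, at 47.8 ± 18.2 CPM and 45.3 ± 10.6 CPM.

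The P450 genes of sterol and vitamin D metabolism named here were chosen after their values were seen, and none passed the unblocked edgeR test. Cyp27b1, which makes active vitamin D, was at 11.4, 2.87 and 3.43 CPM in libraries labelled Nrf2 KO and 1.84, 1.51 and 1.57 CPM in OC1 (log2 fold change 1.84, SE 0.58, adjusted p = 0.111). Without replicate 1 labelled Nrf2 KO it was 0.94 (adjusted p = 0.0194). Cyp46a1, the cholesterol hydroxylase of brain, was at 16.8, 3.03 and 3.94 CPM in libraries labelled Nrf2 KO and 3.29, 1.17 and 1.75 CPM in OC1 (1.93, SE 0.77, adjusted p = 0.187, or 0.0255 blocked). Its groups overlapped, and without replicate 1 labelled Nrf2 KO the value was 0.75 (adjusted p = 0.211). For both genes replicate 1 labelled Nrf2 KO was far above the rest, the opposite of its place among the abundant members. Cyp39a1, an oxysterol hydroxylase, was at 0.670, 0.876 and 1.05 CPM in libraries labelled Nrf2 KO and 0.102, 0.225 and 0 CPM in OC1 (2.92, SE 0.80, adjusted p = 0.0803, and 3.998 without OC1 replicate 2). DESeq2 called all 3 higher, with adjusted p-values of 0.0113 for Cyp27b1, 0.0445 for Cyp46a1 and 0.00313 for Cyp39a1. Cyp2r1, which carries out the first hydroxylation of vitamin D, was at 8.49, 5.23 and 4.86 CPM in libraries labelled Nrf2 KO and 7.53, 7.49 and 6.81 CPM in OC1. Its log2 fold change was -0.23 with all libraries (SE 0.27) and -0.53 without replicate 1 labelled Nrf2 KO (adjusted p = 0.0452). Cyp21a1, a steroid hydroxylase, was at 0.319, 0.143 and 0.0972 CPM in libraries labelled Nrf2 KO and 0.842, 0.720 and 0.413 CPM in OC1 (-1.85, SE 0.53, adjusted p = 0.0903, or 0.0306 blocked and 0.0255 by DESeq2).

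Flavin monooxygenases oxidise nitrogen and sulfur in drugs and diet. Of 8 genes 4 were expressed, and 2 were lower and 0 higher. Of the lower genes, Fmo1 was at 0.128, 0.143 and 0.0972 CPM in libraries labelled Nrf2 KO and 0.689, 0.652 and 0.670 CPM in OC1 (log2 fold change -2.42, SE 0.33, adjusted p = 0.00953). The Fmo1 call was lost without any 1 library other than replicate 1 labelled Nrf2 KO (up to 0.0761). Fmo4 had its higher values in libraries labelled Nrf2 KO, at 7.76, 3.44 and 3.31 CPM against 1.68, 1.46 and 1.42 CPM in OC1, with no overlap (1.66, SE 0.40, adjusted p = 0.0578, or 0.0259 blocked and 0.00126 by DESeq2). Fmo5 averaged 5.24 ± 1.53 CPM in libraries labelled Nrf2 KO and 5.71 ± 1.65 CPM in OC1.

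Some of the lower genes lie in runs of related genes on the mouse genome (gene order from RefSeq GRCm38.p6, looked up after the values were seen), without being next to each other. The ends of each run were chosen by gene name, so the end positions follow from that choice. Genes beyond the ends were not looked at. On chromosome 13 the run of 9 genes was cut at Akr1c14 and Akr1e1, with Akr1c19 at position 4. On chromosome 17 the run of 5 was cut at Cyp4f39 and Cyp4f40, with Cyp4f17 at position 2. Cyp4f39 and Akr1c14 passed the expression limit through OC1 alone, so their direction was set by it. On chromosome 1 Fmo4, with a log2 fold change of 1.66 and not called (edgeR adjusted p = 0.0578), lies beside Fmo1, with -2.42. Fmo1 also passed the limit through OC1 alone, so its direction was set by it.

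**Figure D4:**
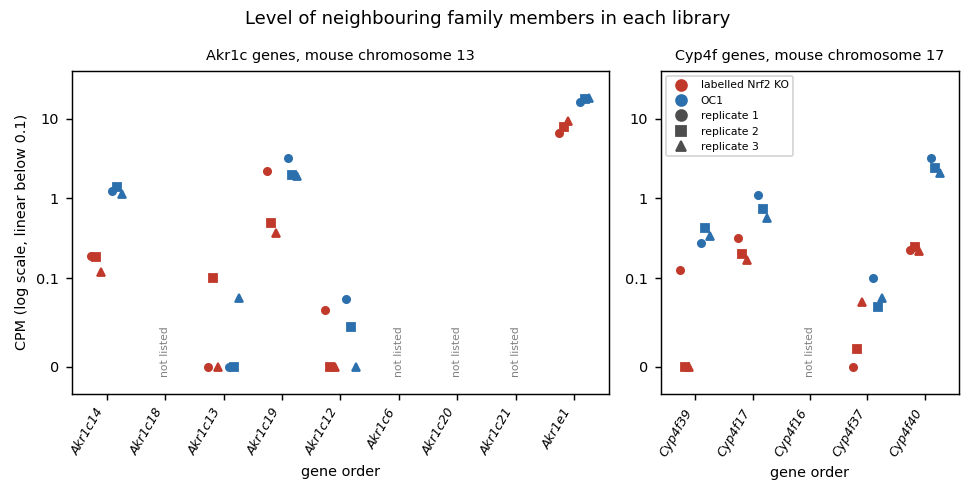
Level in CPM (log scale, linear below 0.1) of every listed gene in 2 runs of neighbouring family members, in mouse gene order, with libraries labelled Nrf2 KO in red left of OC1 in blue. The ends of each run were chosen by gene name. In Akr1c14, Akr1e1, Cyp4f39, Cyp4f17 and Cyp4f40 every red point lies below every blue point, which the expression limit fixed for Akr1c14 and Cyp4f39. Genes marked as not listed have no row under that symbol.

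Of 13 sulfotransferases, which transfer sulfate to phenols and steroids, 4 were expressed, and 2 were lower and 0 higher. Sult2a2, of the hydroxysteroid type, was at 0.319, 0.204 and 0.194 CPM in libraries labelled Nrf2 KO and 2.14, 2.41 and 1.80 CPM in OC1 (log2 fold change -3.15, SE 0.33, adjusted p = 0.00452). Sult5a1 was at 0.255, 0.163 and 0.146 CPM in libraries labelled Nrf2 KO and 1.61, 1.93 and 1.83 CPM in OC1 (-3.26, SE 0.33, adjusted p = 0.00430). Sult1a1, the phenol sulfotransferase, was at 1.56, 1.14 and 1.09 CPM in libraries labelled Nrf2 KO and 1.81, 1.91 and 1.99 CPM in OC1, apart but not called (-0.59, SE 0.26, adjusted p = 0.226). Sult6b1 overlapped between groups (0.09, SE 0.39).

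Of 18 glucuronosyltransferases 4 were expressed, and edgeR called 0 in either direction, as did DESeq2, limma-voom and the block fit. All 4 are Ugt1a forms, which share their last exons and differ in the first, so the division of reads among them is uncertain. Ugt1a6 was at 1.72, 17.1 and 16.0 CPM in libraries labelled Nrf2 KO and 11.4, 17.5 and 17.2 CPM in OC1. Ugt1a5 was at 4.85, 0.285 and 0.0243 CPM in libraries labelled Nrf2 KO and 0.332, 0.292 and 1.13 CPM in OC1. Replicate 1 labelled Nrf2 KO was thus the lowest library for Ugt1a6 and the highest for Ugt1a5.

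Of 15 carboxylesterases, which cleave ester drugs and lipids, 2 were expressed. Ces1f had 149, 25 and 39 counts in libraries labelled Nrf2 KO and 7, 2 and 4 in OC1, or 4.76, 0.509 and 0.948 CPM against 0.179, 0.0450 and 0.103 CPM. It passed the expression limit through the libraries labelled Nrf2 KO alone. The groups did not overlap, with a log2 fold change of 4.21 (SE 1.06, adjusted p = 0.0655, or 0.000227 by DESeq2, 0.00905 blocked and 0.0151 without replicate 1 labelled Nrf2 KO, where the log2 fold change was 2.72). Ces5a overlapped between groups (0.38, SE 1.32).

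The summed level of each family gave a coarser view, dominated by its most abundant genes. Sulfotransferases summed to 2.52, 2.18 and 1.85 CPM in libraries labelled Nrf2 KO and 6.15, 6.88 and 6.21 CPM in OC1. Aldehyde dehydrogenases summed to 470, 815 and 791 CPM in libraries labelled Nrf2 KO and 845, 1021 and 984 CPM in OC1, and carboxylesterases to 5.23, 0.672 and 1.337 CPM against 0.485, 0.135 and 0.567 CPM in OC1. In these 3 families the groups did not overlap, and each gave p = 0.1 in a two-sided exact permutation test, the smallest that 3 against 3 allows (0.233 adjusted over the 7 families). Reductases summed to 263, 856 and 893 CPM in libraries labelled Nrf2 KO and 583, 784 and 755 CPM in OC1, and P450 genes to 518, 824 and 835 CPM against 509, 676 and 612 CPM. These, the flavin monooxygenases and the glucuronosyltransferases overlapped, with exact permutation p from 0.2 to 1.

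**Figure D5:**
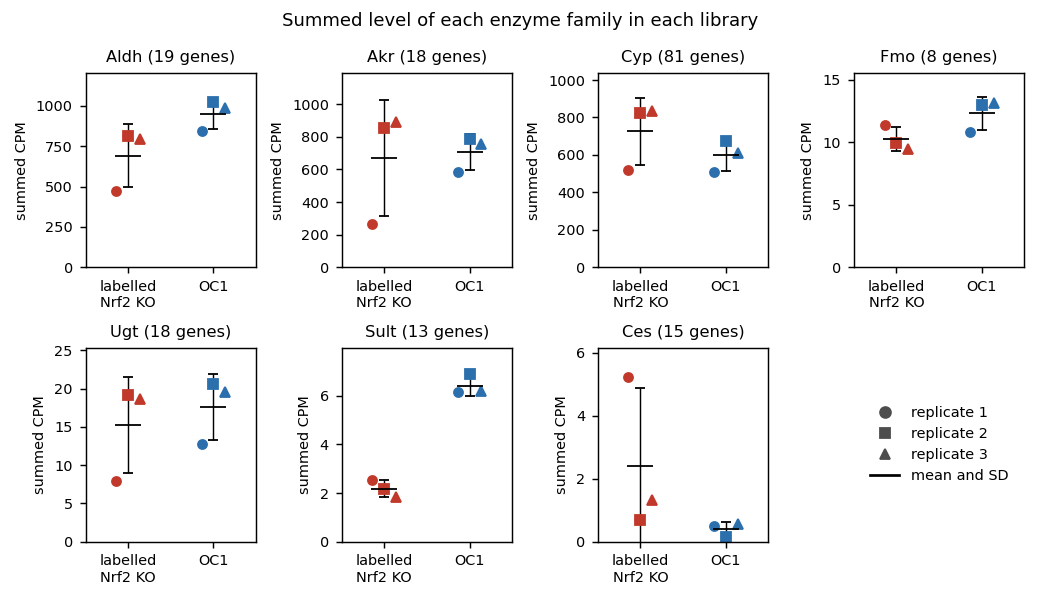
Summed CPM of all members of each family in each library, labelled Nrf2 KO on the left and OC1 on the right, with the mean and SD of 3 libraries and marker shapes for replicate numbers. Sult and Aldh sums of all libraries labelled Nrf2 KO lie under those of OC1, while Akr and Cyp sums overlap and replicate 1 labelled Nrf2 KO is the low point of its group.

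Replicate 1 labelled Nrf2 KO touched much of the set. For 30 of the 45 members not called it lay outside the range of the other 5 libraries, 19 times below and 11 times above. The other 5 libraries lay outside in this way for 6 to 18 members each. Of the 19 members averaging at least 10 CPM, replicate 1 labelled Nrf2 KO was the lowest library for 13. No share of all genes was counted beside these numbers, so they do not set the members apart from other genes. Without that library, 17 of the 45 were called, among them Akr1b1, Aldh3a2, Cyp1b1, Cyp27b1, Cyp39a1, Fmo4 and Ces1f as higher and Aldh2, Aldh7a1, Aldh16a1, Akr7a2, Akr1c19 and Sult1a1 as lower. That fit called 14.5% of all genes lower and 15.6% higher.

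Of 60 tested supply, sensor and related genes 1 was higher (Rarb, above) and 3 lower, against 4.83% and 3.45% of all genes. With the replicate block 5 were higher and 7 lower, against 10.4% and 7.92% of all genes. Without both replicate 1 libraries 16 were higher and 11 lower, against 24.0% and 22.1%. Of 12 other carbonyl and alcohol reductases 2 were lower. Adh7, an alcohol dehydrogenase that also acts on retinol, was at 23.0, 20.1 and 21.9 CPM in libraries labelled Nrf2 KO and 49.2, 46.6 and 48.9 CPM in OC1 (log2 fold change -1.16, SE 0.14, adjusted p = 0.00659, or 0.0630 without OC1 replicate 3). Hagh, a glyoxalase, was at 5.50 ± 0.878 CPM in libraries labelled Nrf2 KO and 12.05 ± 1.70 CPM in OC1 (-1.13, SE 0.22, adjusted p = 0.0278). Its call was lost without any 1 library other than replicate 1 labelled Nrf2 KO (adjusted p up to 0.151). Of 8 other hydrolases and transferases 1 was lower, Ephx1, the microsomal epoxide hydrolase that follows P450 enzymes, at 0.0677 ± 0.0619 CPM in libraries labelled Nrf2 KO and 1.55 ± 0.147 CPM in OC1 (-4.37, SE 0.65, adjusted p = 0.0139). That call was lost without any 1 OC1 library or replicate 2 labelled Nrf2 KO (adjusted p up to 0.0799). With the replicate block Glo1, the first glyoxalase enzyme, was also lower (adjusted p = 0.117, or 0.0365 blocked), and the acetyltransferases Nat1 (0.0764, or 0.0132 blocked) and Nat2 (0.0996, or 0.0377 blocked) were higher.

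No gene was called by edgeR among 8 of P450 electron supply, 8 xenobiotic sensors, 5 of glucuronate supply and 10 of sulfate supply, whose median log2 fold changes were 0.01, 0.27, -0.01 and -0.07. With the replicate block 4 sensors were called, among them Tiparp (adjusted p = 0.0432) and Rxra (0.0376) as higher and Rxrb (0.0481) as lower. The most abundant were Pgrmc1 (283 ± 50.9 CPM in libraries labelled Nrf2 KO and 280 ± 17.6 CPM in OC1) and Cyb5r3 (159 ± 56.9 and 192 ± 12.2 CPM), which support P450 electron transfer. Ahr, the aryl hydrocarbon receptor, was at 287 ± 136 CPM in libraries labelled Nrf2 KO and 241 ± 34.3 CPM in OC1. Slc35b1, a nucleotide sugar carrier, was at 141 ± 3.73 and 141 ± 8.84 CPM, and Ugdh, which makes the glucuronate donor, at 107 ± 44.1 and 84.6 ± 19.8 CPM. Bpnt1, a phosphatase of sulfate metabolism, was at 85.3 ± 15.7 and 103 ± 6.42 CPM, and Papss1, which makes the sulfate donor, at 74.4 ± 31.5 and 91.3 ± 13.4 CPM.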

How the data were processed

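Poly(A)-selected RNA was sequenced from 3 libraries labelled Nrf2 KO and 3 OC1 libraries. The authors' deposited counts are whole numbers per gene symbol and library, and their deposited FPKM are 1 value per group, with no spread. Fastp, FastQC, HISAT2 and DESeq2 1.34.0 are named as tools and hg18 as the build, per the submitters' processing notes. How reads were counted, with which strand setting and annotation, is not stated (not given in the sources used here). Symbols follow rat usage: 46 of the 57 expressed members are current mouse symbols, 4 more are older names of mouse genes, and 7 have no mouse match. Reads of near-identical relatives and of overlapping genes cannot be separated.

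Testing used edgeR 4.0.16 (R 4.3.3) on the counts: filterByExpr (minimum count 10, minimum total 15; 14618 genes), TMM scaling, the robust quasi-likelihood test with group as the only term, two-sided, Benjamini-Hochberg adjusted, threshold 0.05. An adjusted p-value is from this test where no tool is named beside it. The SE of an edgeR log2 fold change is its absolute value divided by the square root of the F statistic of the test. Levels are CPM after TMM scaling. DESeq2 1.42.0 and limma-voom (limma 3.58.1) were alternatives, and the fits were checked on simulated data. The simulation had no outlying library and changed no weakly expressed gene, so the check does not cover such members. Deviations from group means correlated at 0.754, 0.696 and 0.310 for replicate numbers 1, 2 and 3, all above 0.1. Replicate 3 labelled Nrf2 KO correlated more with OC1 replicate 2 (0.539), and its replicate 2 reached 0.278 with OC1 replicate 3, so the third pair is not specific. By the limit of 0.1, same-numbered libraries were treated as pairs in an alternative fit, with the number as a block, and not in the main test. The pairing rests on these same data and not on the labels. Blocked values are given where they change a call. No pair of libraries differed by as little as sampling noise (chi-square over its degrees of freedom at least 15.3 within groups). Members and lists were chosen with earlier results of these data known. The text gives values in every library for the called members, for the 2 most abundant members of a family with none called and for the retinoic acid route. In each other list it names up to 4 called genes, or the 2 most abundant. Further members were named after their values were seen. Of the genes this rule names, 2 are not reported here.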

Additional observations from a re-analysis of the deposited data

How the results depend on the processing

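Without each library in turn, 0 to 7 members were called higher and 6 to 22 lower, and over all genes 139 to 2323 higher and 57 to 2162 lower. The supply, sensor and related genes gave 0 to 13 higher and 0 to 9 lower. DESeq2 called 5 members, 1598 of all genes and 4 of the related genes higher, and 1318 of all genes and 6 of the related genes lower. With the replicate block these counts were 4, 1520 and 5 higher and, lower, 1158 of all genes and 7 of the related genes. Without both replicate 1 libraries 10 members, 3540 genes and 16 related genes were higher and 23, 3253 and 11 lower. The cause was not tested.

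The log2 ratio of summed CPM ranged from -0.34 to 0.31 for reductases and from -0.41 to 0.10 for glucuronosyltransferases without each library in turn, and was 0.18 for reductases without both replicate 1 libraries. Members that changed sign were none of the 12 called. Akr1b10 had log2 fold changes of -0.061 with upper-quartile scaling, -0.050 with library size alone, -0.33 by limma-voom and -0.30 with the replicate block. Aldh6a1 had -0.064, -0.033, -0.037 and -0.035 in the same order, and -0.012 with no filter. Ugt1a7c had -0.16 by limma-voom and -0.042 with the replicate block, and Ugt1a5 -0.51 by limma-voom. Without both replicate 1 libraries Akr1b8 had 0.24, Ces5a -0.11, Cyp26a1 -0.20 and Ugt1a5 -2.06.

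Without each library in turn the log2 fold change ranged from -0.53 to 0.021 for Akr1a1, -0.37 to 0.33 for Akr1b8, -0.35 to 0.49 for Akr1b10, -0.14 to 0.20 for Aldh6a1, -0.22 to 1.31 for Ces5a and -0.016 to 0.70 for Cyp2s1. It ranged from -0.42 to 0.97 for Cyp26a1, -0.28 to 0.051 for Cyp20a1, -0.046 to 0.45 for Cyp3a71-ps, -0.12 to 0.36 for Cyp4v3, -1.01 to 0.66 for Cyp2d2 and -0.34 to 0.10 for Fmo5. It ranged from -0.34 to 0.29 for Sult6b1, -1.82 to 2.42 for Ugt1a5, -0.79 to 0.10 for Ugt1a6, -0.16 to 1.79 for Ugt1a8 and -0.79 to 0.70 for Ugt1a7c. Some of these members, such as Ces5a, lay below 1 CPM and had few counts, while others, such as Akr1a1 and Akr1b8, were abundant. The cause of these ranges was not tested.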
